A study of Homo sapiens with 18 samples.

Results

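Bladder carcinoma cells of the lines CAL-29, HT-1376 and RT-112 were compared in their WC and WK variants by CAGE-seq, a method that sequences the capped 5′ ends of RNA, to describe what followed the addition of an AP-2γ vector to cells labelled as overexpressing WWOX. WWOX levels in these RNA data did not bear out that label in RT-112 and HT-1376. The study reports Western blots for WWOX and the AP-2 factors as its check of the transductions. Protein was not measured here. All libraries labelled WC and WK were taken and paired by cell line, which gave 6 of the 18 libraries of the series, 3 on each side. Both variants received a lentiviral vector for WWOX in the first stable transduction, under a CMV promoter with GFP and puromycin resistance. In the second transduction WC received a CMV vector for AP-2γ with neomycin resistance and WK a blank control. The variants were kept under puromycin and then G418, and whether they are pools or single clones is not given in the sources used here. These are established lines from human urinary bladder, and every variant of a line had 1 library. The variants KC (control, then AP-2γ) and KK (control in both transductions), which carry no WWOX vector, served as independent libraries in RT-112 and HT-1376.

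AP-2γ, encoded by TFAP2C, is a transcription factor of the AP-2 family that binds GC-rich palindromic sites as a dimer and acts in ectoderm, trophoblast, germ cells and stratified epithelia. WWOX is a tumour suppressor with WW domains, through which it binds proteins that carry short proline-rich motifs, AP-2 factors among them, and it can hold such partners in the cytoplasm. Urothelium, from which these tumours arise, is a layered epithelium whose luminal cells make uroplakins under factors such as GATA3, FOXA1 and PPARG, while its basal cells make keratins of stratified epithelium. Squamous differentiation replaces the luminal programme with cornified envelope proteins.

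Of 16575 genes, 12008 had at least 5 CPM, the reads at a gene scaled to the total of its library, in 1 or more of the 6 libraries and were tested. Between 15636025 and 17383090 reads lay on genes in a library, so that 3 reads, the limit for a gene without reads, were worth 0.163 to 0.181 CPM. The 6 libraries carried the genes that set their cell line apart in the KK libraries. Of 47 such genes of HT-1376, 45 and 42 reached 10% of the KK level in WC and WK of that line and at most 1 in the other lines. The corresponding numbers for 68 genes of CAL-29 were 60 and 56, against 12 or 13 in HT-1376 and 0 in RT-112. Epithelial markers were present in all 6 libraries (KRT8 from 164 to 897 CPM, EPCAM from 20.9 to 131 CPM), and 5 of 20 markers of fibroblasts, endothelium and blood cells passed the filter. The summed level of the 8 markers present in the data lay between 21.04 and 61.97 CPM, with CD14, CDH5 and COL3A1 under 1 CPM. In bulk libraries, fewer cells of a type and less RNA per cell cannot be told apart.

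TFAP2C was higher in WC than in WK in 3 of 3 lines. It stood at 142.75 CPM in WC and 56.20 CPM in WK of RT-112, at 162.76 and 68.99 CPM in HT-1376, and at 338.56 and 93.09 CPM in CAL-29. The lowest WC library was above the highest WK library, and the ratio was highest in CAL-29 (3.64), followed by 2.54 for RT-112 and 2.36 for HT-1376. The mean log2 difference was 1.48 ± 0.33 (SD, n = 3 lines), and the exact two-sided permutation test by sign flips gave p = 0.25, the smallest p that 3 pairs allow. Reads at TFAP2C (chromosome 20, 56629306-56639283, GRCh38) can come from the gene of the cell or from the vector, and a table of 1 value per gene does not separate them. Against WK, the AP-2γ label was thus borne out in each line. A higher level was not particular to WC, since the WA library of RT-112, labelled with an AP-2α vector in place of AP-2γ, had 179.87 CPM. The AP-2α gene TFAP2A stood at 25.32 CPM in that library and 20.31 CPM in WK of RT-112, so its label was little borne out in RNA. What raised TFAP2C there was not tested. For TFAP2C, WC of HT-1376 stood close to KK of its line (158.24 CPM).

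**Figure D1:**
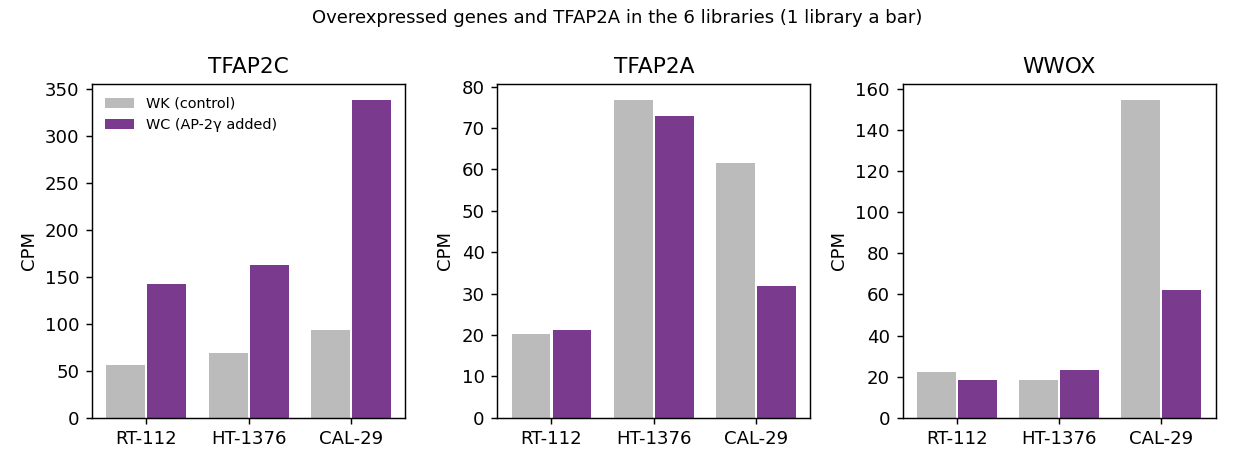
CPM of TFAP2C, TFAP2A and WWOX in the WK (grey) and WC (purple) library of each cell line, 1 library a bar. TFAP2C was higher in WC in 3 of 3 lines, and WWOX was 2.48-fold lower in WC of CAL-29.

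The WWOX label was not borne out by the CAGE level at the WWOX gene in most libraries, which does not show the protein level. WWOX measured 18.45 CPM in WC and 22.33 CPM in WK of RT-112, and 23.06 and 18.58 CPM in HT-1376. The CAL-29 libraries had 62.36 CPM in WC against 154.92 CPM in WK, a ratio of 2.48 in favour of WK. The KK libraries, which received no WWOX vector, had 26.04 CPM in RT-112, 22.36 CPM in HT-1376 and 63.68 CPM in CAL-29. Of the 6 WC and WK libraries, WK of CAL-29 alone was clearly above the KK level of its line. Whether the 5′ ends of vector transcripts are counted at WWOX or TFAP2C was not tested. The CAL-29 pair therefore differs in WWOX as well as in AP-2γ, and the contributions of these differences to any result in CAL-29 cannot be told apart. TFAP2A, which encodes the related AP-2α, measured 21.16 and 20.31 CPM in WC and WK of RT-112 and 72.86 and 76.90 CPM in HT-1376, and it was lower in WC of CAL-29 (31.71 against 61.66 CPM). Among 11 measured genes of the AP-2 family, WWOX and AP-2 cofactors, TFAP2C was the only member higher in 3 of 3 lines. YEATS4, a chromatin reader known to bind AP-2 factors, was lower in 3 of 3 lines by 0.99, 0.45 and 0.44 on the log2 scale. CITED4, a CBP/p300-binding coactivator of AP-2, was lower by 0.40, 0.41 and 0.24, but with TMM scaling its CAL-29 difference was 0.07. These 2 of 11 genes lower in 3 of 3 lines (18.2%) compare with 17.9% of all genes.

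No gene was called between WC and WK by limma, while DESeq2 on recovered reads called 11. limma with the cell line as a block gave 0 genes at an adjusted p under 0.05 (0% of 12008), and the smallest adjusted p was 0.984. At an unadjusted p under 0.05, 87 genes were higher (0.725%) and 159 lower (1.32%) in WC. With TMM scaling, which removes a shared shift between libraries, the same counts were 144 and 81, so the balance between higher and lower genes depends on the scaling. A difference of more than 2-fold in 3 of 3 lines was found in 7 genes that were higher (0.0583%) and 1 that was lower (0.00833%). The higher genes were L1CAM, KLK8, TFAP2C and TNC, and also BOC, HSD17B1 and XAGE2, which had no read in at least 1 WK library. The lower gene was the chemokine CXCL5, which had no read in WC of RT-112. BOC, HSD17B1 and XAGE2 were picked out after their values were seen. All WC libraries lay above all WK libraries for 22 genes (0.183%) and below them for 109 genes (0.908%). In WC 526 genes were higher in 3 of 3 lines (4.38%) and 2153 were lower (17.9%), and with TMM scaling these counts were 1065 (8.87%) and 1212 (10.1%), and with quantile normalization 1191 (9.92%) and 1238 (10.3%).

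The 3 lines shared little of their response. Across the 12008 genes, the within-line differences of RT-112 and HT-1376 had a Pearson correlation of 0.09, those of RT-112 and CAL-29 one of -0.16 and those of HT-1376 and CAL-29 one of -0.13. These are correlations across genes, which are not independent replicates, and the values of the lines come from separate libraries. In RT-112, 213 genes were more than 2-fold higher (1.77%) and 620 more than 2-fold lower (5.16%) in WC. In HT-1376 it was 389 (3.24%) and 93 (0.774%). In CAL-29 it was 448 (3.73%) and 2067 (17.2%), and 727 and 1108 after TMM scaling. The median gene was lower by 0.36 on the log2 scale in WC of CAL-29 and by 0.04 in RT-112, and the median was 0 in HT-1376. With 1 library per line and variant, the difference within a line has no replicate check.

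**Figure D2:**
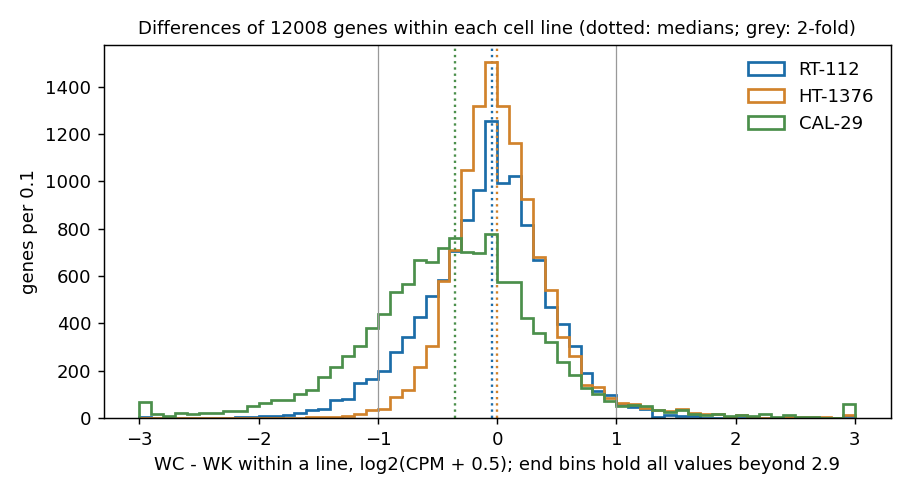
Histogram of the WC minus WK differences on the log2(CPM + 0.5) scale for 12008 genes in each line, in bins of 0.1, with the median of each line as a dotted line and 2-fold as grey lines. The CAL-29 curve is wider and its median lies at -0.36, against -0.04 in RT-112 and 0 in HT-1376.

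The genes that were higher in WC in 3 of 3 lines with the largest smallest difference were led by L1CAM, a cell adhesion molecule of the immunoglobulin superfamily best known from the growth of axons. L1CAM (chromosome X, 153861514-153886173) measured 27.85 CPM in WC and 0.98 CPM in WK of RT-112, 61.69 and 10.09 CPM in HT-1376, and 17.99 and 6.69 CPM in CAL-29. Every WC value was above every WK value. The ratio of WC to WK was smallest in CAL-29 (2.69), larger in HT-1376 (6.11) and largest in RT-112 (28.4). KLK8, a secreted serine protease of the kallikrein family, measured 71.19 and 23.80 CPM in RT-112, 87.71 and 36.01 CPM in HT-1376, and 47.85 and 2.04 CPM in CAL-29. Its groups did not overlap either, and the ratios were 2.99, 2.44 and 23.5. TNC, an extracellular matrix glycoprotein of tissue remodelling, measured 10.43 and 3.00 CPM in RT-112, 84.97 and 38.42 CPM in HT-1376, and 96.38 and 8.23 CPM in CAL-29. Its ratios were 3.48, 2.21 and 11.7, with an overlap between the groups since RT-112 had low levels in both libraries. KLK8 overlaps KLK9 in the annotation, and TNC overlaps DELEC1.

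LGALS1, which encodes galectin-1, a lectin that binds galactosides, was the most abundant of these genes. It measured 179.46 and 113.10 CPM in RT-112, 572.64 and 270.85 CPM in HT-1376, and 1181.32 and 588.62 CPM in CAL-29. P2RY6, a receptor for uridine nucleotides, measured 8.74 and 5.88 CPM in RT-112, 31.99 and 5.28 CPM in HT-1376, and 12.76 and 0.77 CPM in CAL-29. TMPRSS13, a serine protease of the cell surface, measured 7.78 and 5.17 CPM, 9.81 and 2.06 CPM, and 14.28 and 6.80 CPM in the same order. CLIC3, an intracellular chloride channel protein, had ratios of 1.60, 4.41 and 2.02. The remaining genes were SLC2A6, a hexose transporter, RAB36, a small GTPase, CTNNAL1, a relative of α-catenin, PALM2AKAP2, an anchor of protein kinase A, HRK, a BH3-only promoter of apoptosis, GOLGA7B and C12orf75. GOLGA7B overlaps CRTAC1. The mean log2 difference over the lines was 2.73 with a limma SE of 0.52 for L1CAM, 2.36 with 0.55 for KLK8, 2.08 with 0.44 for TNC and 0.92 with 0.20 for LGALS1. Their adjusted p in limma was 0.984.

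The sequences before the starts of transcription were searched for the palindrome that AP-2 factors bind. RefSeq promoters (GRCh38.p14) were at hand for 9 of the 15 higher and 6 of the 15 lower genes, TFAP2C, KLK8, LGALS1 and P2RY6 not among them. The motif GCCNNNGGC, which is its own reverse complement, was found in the 250 bases before the start in 2 of 9 higher genes (22.2%) and 3 of 6 lower genes (50.0%), against 28.4% of the 9285 genes tested with a promoter and 19.7% of all 27305 promoters. With GCC and GGC 4 bases apart, which is also its own reverse complement and can overlap the first, it was 3 of 9 (33.3%) and 0 of 6, against 27.8% and 18.4%. Neither L1CAM nor TNC had a match in this window. The windows that follow are those of the named genes with a match outside annotated exons, 5′ to 3′ on the strand of the gene and without the bases that GENCODE 44 annotates as exon, with matches to either motif in capitals. CLIC3 (chr9:136996569-136996818, minus strand), SLC2A6 (chr9:133479128-133479349, minus strand) and C12orf75 (chr12:105330441-105330635, plus strand) were higher in WC and PRMT6 (chr1:107056424-107056673, plus strand) was lower.
CLIC3: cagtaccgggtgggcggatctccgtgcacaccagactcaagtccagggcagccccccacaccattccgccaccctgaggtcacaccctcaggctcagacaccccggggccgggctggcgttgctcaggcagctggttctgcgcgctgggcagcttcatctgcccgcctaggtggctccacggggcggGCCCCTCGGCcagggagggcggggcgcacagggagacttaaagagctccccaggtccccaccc
SLC2A6: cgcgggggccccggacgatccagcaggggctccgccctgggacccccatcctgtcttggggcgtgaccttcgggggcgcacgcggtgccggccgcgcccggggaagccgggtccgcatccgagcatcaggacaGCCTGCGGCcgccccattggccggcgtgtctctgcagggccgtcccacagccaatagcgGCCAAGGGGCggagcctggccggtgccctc
C12orf75: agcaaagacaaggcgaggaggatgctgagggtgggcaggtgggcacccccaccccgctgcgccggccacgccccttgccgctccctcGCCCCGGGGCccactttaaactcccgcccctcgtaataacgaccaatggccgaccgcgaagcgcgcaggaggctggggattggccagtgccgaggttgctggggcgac
PRMT6: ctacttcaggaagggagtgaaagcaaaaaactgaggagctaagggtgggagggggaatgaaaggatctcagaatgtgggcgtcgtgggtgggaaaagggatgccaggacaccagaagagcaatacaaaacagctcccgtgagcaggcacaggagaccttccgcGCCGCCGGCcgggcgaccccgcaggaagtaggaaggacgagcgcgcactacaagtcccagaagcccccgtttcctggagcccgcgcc

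The KC and KK libraries of RT-112 and HT-1376, made without the WWOX vector, share no library with WC and WK. WWOX stood at 25.87 CPM in KC and 26.04 CPM in KK of RT-112 and at 16.95 and 22.36 CPM in HT-1376, so these libraries were not lower in WWOX throughout than WC and WK. TFAP2C was 4.55-fold higher in KC of RT-112 (263.7 against 57.95 CPM) and 1.35-fold higher in KC of HT-1376 (213.93 against 158.24 CPM). The library labelled KC of CAL-29 was set aside, since its median correlation with its own line was 0.841 and it reached 0.978 with a library of HT-1376. Of the 14 higher genes other than TFAP2C, 14 were higher in KC of RT-112, where 7965 of all 12008 genes were higher. In KC of HT-1376, 10 of the 14 were higher, against 5594 of all 12008 genes. In both lines 10 were higher (71.4%), against 31.1% of all genes. Their median log2 difference was 0.84 in each of the lines, against 0.12 and -0.03 for all genes. KLK8 was higher in KC by 2.27 and 2.32 and TNC by 2.53 and 4.37 on the log2 scale. L1CAM was higher by 5.13 in RT-112 and by 0.15 in HT-1376. The exceptions in HT-1376 were CLIC3 (-1.01), HRK (-1.21), RAB36 (-0.30) and C12orf75 (-0.21). Of all 526 genes that were higher in 3 of 3 lines, 184 were higher in KC of both lines (35.0%), which is near the background. The difference between WC against WK and KC against KK was tested in the 8 libraries of RT-112 and HT-1376, and limma called 0 of 11423 genes (0%), with 51 higher and 84 lower at an unadjusted p under 0.05. edgeR also called 0, with 78 and 137 at an unadjusted p under 0.05.

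**Figure D3:**
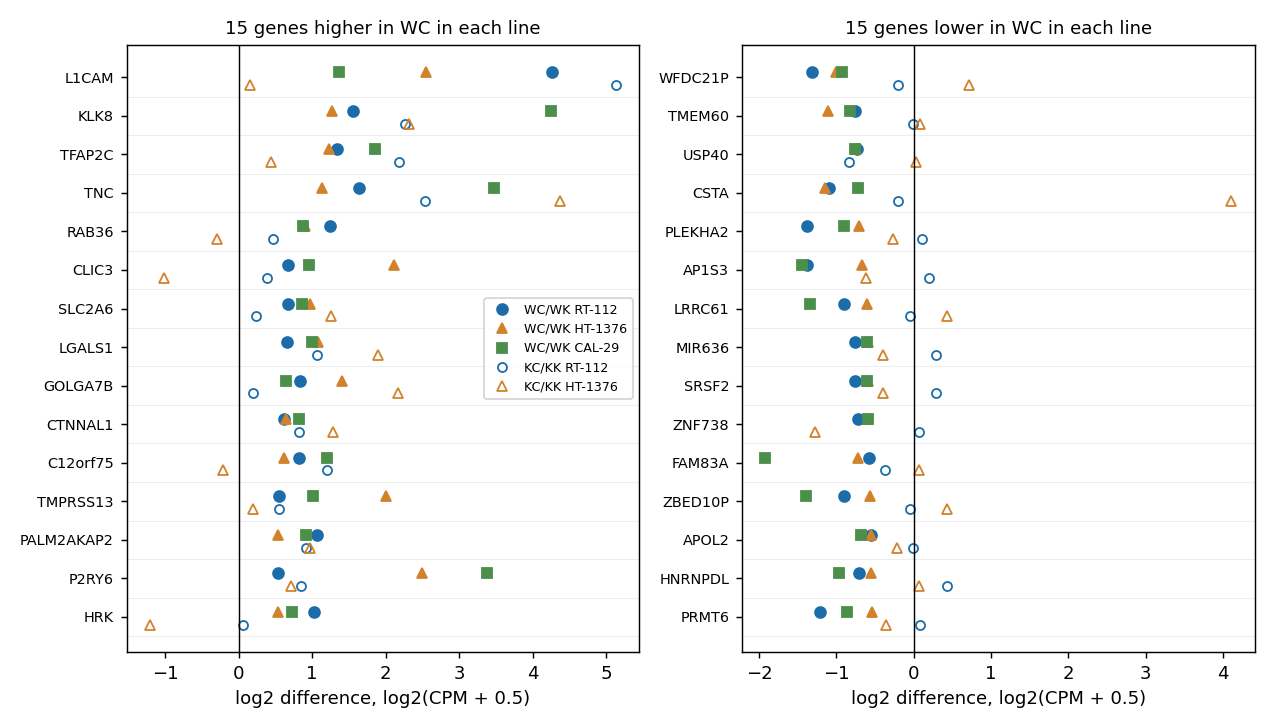
Log2 differences on the log2(CPM + 0.5) scale for the 15 genes higher (left) and the 15 genes lower (right) in WC in 3 of 3 lines, with WC minus WK as filled and KC minus KK as open symbols, coloured by cell line. Filled symbols lie on one side of 0 because of the choice of the genes. The open symbols of the higher genes lie above 0 in 14 of 14 genes other than TFAP2C in RT-112 and 10 of 14 in HT-1376. Of all 12008 genes, 7965 and 5594 lie above 0 in these lines.

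The 15 genes that were lower in WC in 3 of 3 lines differed by less. CSTA, a cystatin that inhibits cysteine proteases and is built into the cornified envelope, measured 7.72 CPM in WC and 16.99 CPM in WK of RT-112, 16.82 and 37.79 CPM in HT-1376, and 105.37 and 173.04 CPM in CAL-29. PRMT6, an arginine methyltransferase of histones, measured 3.26 and 8.22 CPM, 14.63 and 21.56 CPM, and 18.44 and 33.98 CPM in the same order. The splicing factor SRSF2 was 1.70-fold, 1.51-fold and 1.52-fold lower in WC, and the microRNA gene MIR636 within it had nearly the same counts, so these are 1 signal. The same holds for LRRC61 and the pseudogene ZBED10P, which overlap. FAM83A, a protein of EGFR signalling, measured 197.91 and 296.07 CPM, 99.43 and 164.36 CPM, and 29.75 and 113.65 CPM. WFDC21P, TMEM60, USP40, PLEKHA2, AP1S3, ZNF738, APOL2 and the RNA-binding protein HNRNPDL complete the group, and all WC values lay below all WK values only for LRRC61 and ZBED10P among them. In KC against KK, 1 of the 15 was lower in both lines (6.67%), against 16.6% of all genes, and CSTA was higher by 4.10 in KC of HT-1376. With TMM scaling the 15 genes kept their direction in each line.

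Of the fits to counts recovered from the CPM, only DESeq2 gave calls. DESeq2 called 11 genes at an adjusted p under 0.05 (0.0916% of 12008), all higher in WC, while voom and edgeR with the same block called 0. At an unadjusted p under 0.05, voom had 190 higher and 243 lower genes and edgeR 152 and 94. The DESeq2 log2 difference was 3.03 for L1CAM and 1.64 for TFAP2C, each with an adjusted p of 0.000671, 2.30 for TNC (adjusted p 0.0162) and 1.08 for LGALS1 (adjusted p 0.0385). Among the other genes, named after their values were seen, were KISS1, CST7, BOC, LOXL2, TREM2 and ARSI. KISS1 and CST7 had 0 CPM in WC of CAL-29, and ARSI had at most 0.06 CPM in RT-112, so these differences rest on 2 lines. TREM2 and BOC were also low in CAL-29, with 0.22 and 0.96 CPM in WC and 0 CPM in WK. LOXL2, which cross-links collagen, measured 3.56 and 0.38 CPM in WC and WK of RT-112, 22.08 and 11.30 CPM in HT-1376, and 134.33 and 3.76 CPM in CAL-29. Without HT-1376, limma called 10 genes (0.0866%) on the RT-112 and CAL-29 pairs alone, and WWOX was also 2.48-fold lower in WC of CAL-29. Of the 10 genes, 7 were higher (KLK5, KLK8, LOXL2, S100A7, TNC, L1CAM and FXYD5) and 3 lower (CFB, CRABP2 and PLA2G2A). The calls of a single fit thus turned on the tool and on HT-1376.

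The widest differences were found in CAL-29, with squamous genes furthest from the median of all genes. Of 22 squamous and cornified envelope genes, 15 were more than 2-fold higher and 2 more than 2-fold lower in WC of CAL-29. The shares of all genes were 3.73% and 17.2%. The median of the list was 3.56 on the log2 scale against -0.36 for all genes. In RT-112 the median was -0.61, with 1 gene more than 2-fold higher and 7 lower. Of all genes in RT-112, 1.77% were more than 2-fold higher and 5.16% lower. In HT-1376 the median of the list was 0.09. SPRR1B, a precursor of the cornified envelope, measured 635.45 CPM in WC and 2.60 CPM in WK of CAL-29, but 1.57 and 18.08 CPM in RT-112 and 168.02 and 234.84 CPM in HT-1376. KRT6A, a keratin of hyperproliferative epidermis, measured 211.14 and 2.49 CPM in CAL-29, 1.02 and 17.32 CPM in RT-112, and 41.58 and 34.01 CPM in HT-1376. KRT1, a keratin of differentiating epidermis, measured 91.82 and 0.39 CPM in CAL-29, 5.85 and 19.55 CPM in RT-112, and 3.56 and 0.52 CPM in HT-1376. In each of these genes WC was the higher library in CAL-29 and the lower one in RT-112. KLK5, a protease that sheds cornified cells, was higher in WC of RT-112 (112.07 against 5.99 CPM) and of CAL-29 (54.88 CPM against 0.06 CPM, which is 1 read), but not of HT-1376 (46.73 against 66.06 CPM). In CAL-29 its ratio was 993, with a 95% interval of 178 to 39270 from counting error alone. The summed CPM of the list was lower in WC of CAL-29 (2828 against 3102), the reverse of the median, because LCN2, a secreted iron-binding lipocalin that the list also holds, went from 2465.08 CPM in WK to 334.17 CPM in WC.

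MMP9, a gelatinase of the extracellular matrix, had 0 reads in WK and 54.71 CPM in WC of CAL-29, at least 330-fold higher when 3 reads are set as the limit. It measured 51.93 and 19.73 CPM in WC and WK of HT-1376 and 0.06 and 0.49 CPM in RT-112. Of the basal urothelial genes, 6 of 20 were more than 2-fold higher and 1 lower in CAL-29, against 3.73% and 17.2% of all genes. KRT5, the keratin of basal cells, measured 155.81 and 24.92 CPM in CAL-29 and 10.74 and 2.06 CPM in HT-1376, but 17.72 and 48.41 CPM in RT-112. S100 genes encode small calcium-binding proteins of epithelia and neutrophils. In CAL-29, 8 of 15 were more than 2-fold higher and 2 of 15 lower, against the same 3.73% and 17.2% of all genes. S100A7 measured 1141.68 and 42.38 CPM and S100A8 measured 10429.8 and 1179.34 CPM in WC and WK of that line. S100A8 measured 24439 and 13732.3 CPM in HT-1376 and 1540.6 and 2388.77 CPM in RT-112. S100A14, S100A16 and S100A13 were higher in 3 of 3 lines (20% of the list, against 4.38% of all genes), and 0 were lower (against 17.9%). S100A14 differed by 0.68, 0.26 and 0.68 on the log2 scale in RT-112, HT-1376 and CAL-29. S100A16 (0.07, 0.08 and 1.68) and S100A13 (0.14, 0.07 and 1.23) differed mainly in CAL-29.

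Luminal urothelial genes went the other way in CAL-29, where 18 of 27 were more than 2-fold lower in WC and 1 was higher. Their median was -1.48 (-1.17 after TMM scaling), against 0.01 in HT-1376 and 0.00 in RT-112. GATA3, a determinant of luminal fate, measured 93.79 CPM in WC and 369.72 CPM in WK of CAL-29, against 234.38 and 233.99 CPM in RT-112 and 90.99 and 79.37 CPM in HT-1376. FOXA1 measured 63.03 and 176.46 CPM in CAL-29, and PPARG measured 10.74 and 27.96 CPM. PSCA, a surface antigen of differentiated urothelium, measured 1.74 and 47.57 CPM in CAL-29 but 165.12 and 47.02 CPM in HT-1376. The uroplakin UPK2 measured 2.87 and 16.19 CPM in CAL-29. FABP4, a fatty acid carrier induced by PPARγ, was the member that was higher (39.42 against 1.71 CPM). PIGR, the receptor that carries immunoglobulin A across epithelia, had the lowest ratio of all genes named in CAL-29, with 2.59 CPM in WC and 386.57 CPM in WK. Among mucosal secreted genes, 7 of 11 were more than 2-fold lower and 0 higher, and among tight junction genes it was 6 of 16 and 0, against 17.2% of all genes more than 2-fold lower in this line.

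The other CAL-29 libraries place these levels. SPRR1B stood at 0.95 CPM in KK, 31.24 CPM in KA and 92.07 CPM in WA of CAL-29, and KRT6A at 0.50, 12 and 16.42 CPM, so WC held the highest level of both. PIGR stood at 3.98 CPM in KK, 28.31 CPM in KA and 12.44 CPM in WA, so that WK, and not WC, stood apart from the other libraries. The same was true of PSCA, which stood at 1.23, 4.81 and 1.42 CPM. VSIG2 stood at 8.02, 7.35 and 5.95 CPM, with WK above (48.4 CPM) and WC below (0.51 CPM) the other libraries. Of the 15 squamous genes that were more than 2-fold higher in WC, 13 were highest in WC among the KK, KA, WK, WA and WC libraries (86.7%), against 62.7% of all genes so chosen. Of the 18 luminal genes that were more than 2-fold lower, 15 were highest in WK (83.3%), against 44.03% of all genes so chosen. For cholesterol genes more than 2-fold higher the share highest in WC was 59.1%, and for interferon genes more than 2-fold lower the share highest in WK was 57.9%. Since the genes were chosen on WC and WK, these counts are a description. Of the genes that set CAL-29 apart in KK, the median stood at 37.3% of the KK level in WC and at 71.7% in WK, and the part of this difference in the values above was not tested.

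**Figure D4:**
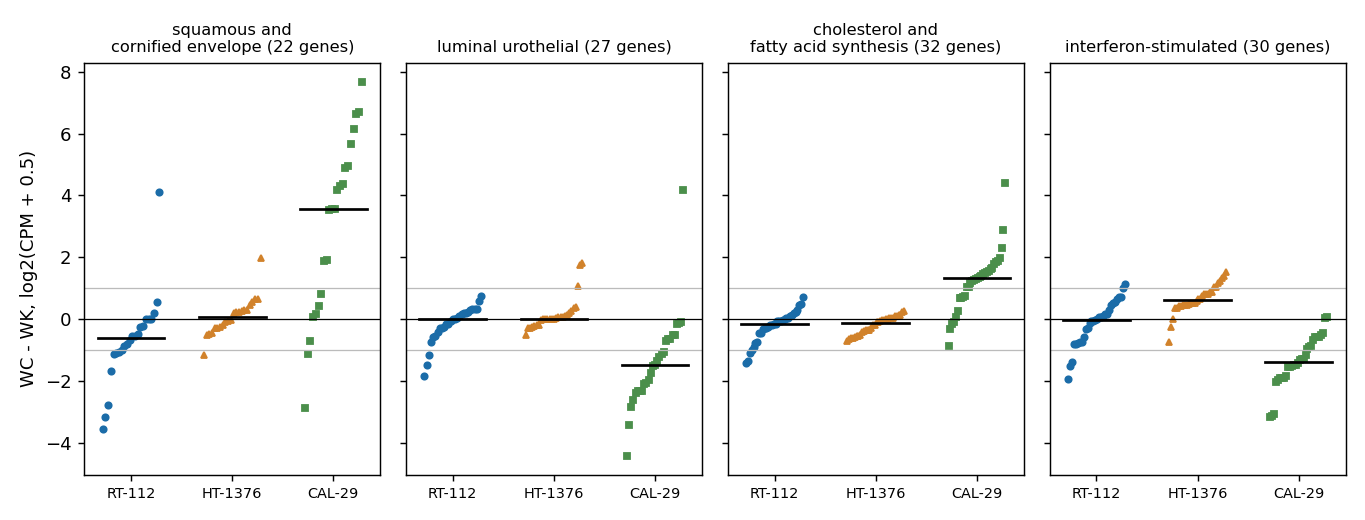
WC minus WK differences on the log2(CPM + 0.5) scale for the members past the filter of 4 gene lists in each cell line, sorted within a line, with the median as a black bar and 2-fold as grey lines. In CAL-29 the medians are 3.56, -1.48, 1.33 and -1.37 from left to right, and in RT-112 and HT-1376 they lie between -0.61 and 0.62.

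Cholesterol synthesis and interferon genes also set CAL-29 apart, where 3.73% of all genes were more than 2-fold higher and 17.2% lower in WC. Of 32 genes of cholesterol and fatty acid synthesis, 22 were more than 2-fold higher and 0 lower in WC of CAL-29 (median 1.33), while 0 and 3 were in RT-112 (median -0.14) and 0 and 0 in HT-1376 (median -0.13). SQLE, the squalene epoxidase, measured 98.46 CPM in WC and 24.48 CPM in WK of CAL-29, 6.87 and 8.33 CPM in RT-112, and 29.91 and 29.53 CPM in HT-1376. INSIG1, the sterol-dependent retention protein, measured 80.69 and 28.07 CPM in CAL-29. Of 30 interferon-stimulated genes, 19 were more than 2-fold lower and 0 higher in WC of CAL-29. Their median was -1.37, and -1.07 after TMM scaling, against -0.36 and -0.06 for all genes. In HT-1376, 7 were more than 2-fold higher and 0 lower (median 0.62), and in RT-112 it was 2 and 3 (median -0.01). The shares of all genes more than 2-fold higher and lower were 3.24% and 0.774% in HT-1376 and 1.77% and 5.16% in RT-112. IFITM1, a restriction factor of virus entry, measured 3.94 and 38.4 CPM in CAL-29 but 1791.18 and 862.44 CPM in HT-1376. IFI6 measured 67.42 and 199.5 CPM in CAL-29, 792.27 and 386.98 CPM in HT-1376, and 61.49 and 107.38 CPM in RT-112. In KC against KK the interferon list had a median of 0.74 in HT-1376 and 0.42 in RT-112.

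Outside these lists, the genes furthest apart in RT-112 were SUSD2, a membrane protein with a sushi domain, at 33.94 CPM in WC and 0.54 CPM in WK, and L1CAM and KLK5. PADI3, a peptidylarginine deiminase of hair and epidermis, followed at 43.65 and 5.83 CPM, and CA9, the carbonic anhydrase IX of hypoxic cells, at 31.23 and 4.57 CPM. SUSD2, PADI3 and CA9 were also higher in KC of RT-112, by 7.34, 1.60 and 2.29 on the log2 scale. The lowest were CRABP2, a retinoic acid carrier (4.58 against 36.05 CPM), the cytokine IL18 (6.81 against 34.80 CPM), ILF2, CCT3 and DNAJC8. CRABP2 was also lower in CAL-29 (4.50 against 23.70 CPM) but not in HT-1376 (6.63 against 3.78 CPM). In KC of RT-112, CRABP2, IL18, ILF2, CCT3 and DNAJC8 were higher by 0.10, 0.17, 0.98, 0.71 and 0.32, so none of the 5 was lower there.

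In HT-1376 the gene furthest apart was H3C3, a replication-dependent histone, with 24.16 CPM in WC and 0.75 CPM in WK, although it was abundant in RT-112 (4870.95 and 5365.92 CPM) and in CAL-29 (2656.72 and 2119 CPM). Histone genes share near-identical sequence, so this value is uncertain, and the log2 difference of KC and KK for H3C3 was -3.54 in that line. GAS6, a ligand of the TAM receptor kinases, measured 100.09 and 7.91 CPM, and it was higher by 5.84 in KC of HT-1376. SERPING1, the C1 inhibitor of complement, measured 34.51 and 3.5 CPM, RNASE1, a secreted ribonuclease, 29.47 and 4.30 CPM, and the germline gene MAGEB2 25.75 and 2.81 CPM. The lowest were C1orf68, the germline genes XAGE1A (66.29 against 198.19 CPM) and PAGE2B, the ribosomal protein gene RPS24 and CTSC, a lysosomal protease (79.00 against 233.75 CPM). CTSC was also lower in RT-112 (66.07 against 218.15 CPM) but not in CAL-29 (248.87 against 138.51 CPM), and members of the XAGE and PAGE families share sequence with near copies.

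In the remaining lists few members had the same sign in 3 of 3 lines. Of 16 measured genes known as AP-2 targets from general knowledge, 1 was higher and 2 were lower in 3 of 3 lines, which is 6.25% and 12.5% against 4.38% and 17.9% of all genes. ERBB2, the classical target of AP-2 factors in breast cancer, measured 200.32 and 174.20 CPM in WC and WK of RT-112, 81.02 and 61.76 CPM in HT-1376, and 77.37 and 169.06 CPM in CAL-29. Of 33 ATF4 target and tRNA synthetase genes, 9 were lower in 3 of 3 lines (27.3%, against 17.9% of all genes), and 5 were so after TMM scaling. Of 13 glutathione S-transferase genes 5 were lower in 3 of 3 lines (38.5%) and 3 after TMM scaling. Of 25 NRF2 target and antioxidant genes the counts were 6 (24%) and 2. The share of all genes lower in 3 of 3 lines was 17.9%, and 10.1% after TMM scaling. AKR1C1, an aldo-keto reductase, was lower by 1.56, 0.72 and 0.43. Of 19 integrin and laminin genes 3 were higher in 3 of 3 lines (15.8%, against 4.38% of all genes) and 0 lower, and 1 was higher with quantile normalization. The 3 included the fibronectin receptor subunit ITGA5 (27.07 and 23.14 CPM in RT-112, 148.68 and 57.81 CPM in HT-1376, 74.05 and 35.58 CPM in CAL-29). ITGA1 was higher by 0.31, 0.61 and 0.10 on the log2 scale, with 4 reads against 3 in CAL-29. ITGB3 was higher by 0.02, 1.69 and 0.16. TGFB2, a ligand of the TGF-β family, was higher by 0.93, 1.04 and 1.42 and rested on 0.66 CPM against 0.11 CPM in RT-112. Of 23 endoplasmic reticulum chaperone and unfolded protein response genes, 2 were higher and 2 lower in 3 of 3 lines (8.70% each). The shares of all genes were 4.38% and 17.9%. With TMM scaling the counts were also 2 and 2, against 8.87% and 10.1% of all genes. HSP90B1 (0.89, 0.59 and 0.29) and HSPA5 (0.30, 0.48 and 0.13) were the higher genes. XBP1 (-0.75, -0.03 and -0.69) and EDEM1 (-0.42, -0.34 and -0.66) were the lower genes. Of 14 genes of FGF receptors and ERK feedback, 7 were more than 2-fold higher in CAL-29, led by FGFBP1 (43.35 against 1.71 CPM). The 2 that were more than 2-fold lower were the receptors past the filter, FGFR2 (-1.66) and FGFR3 (-1.50). Of 8 plasminogen activation genes 4 were higher and 2 lower in CAL-29. Of all genes, 3.73% were more than 2-fold higher and 17.2% lower in this line.

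**Figure D5:**
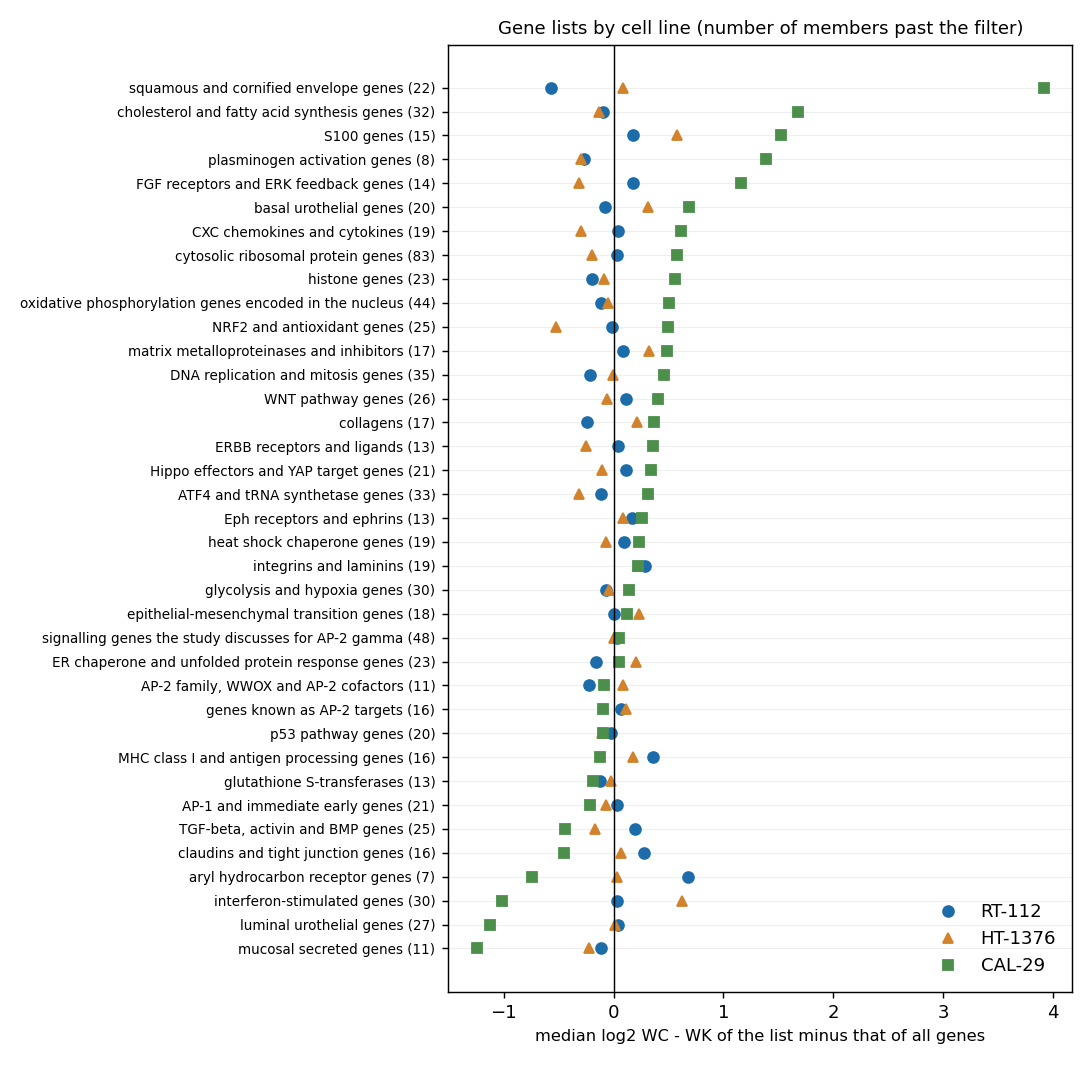
Median WC minus WK difference of the members of each gene list on the log2(CPM + 0.5) scale, after subtraction of the median of all genes in the same line, with 1 symbol per cell line and the number of members past the filter in brackets. The CAL-29 squares reach from mucosal secreted genes at the bottom to squamous genes at the top, while most symbols of RT-112 and HT-1376 lie near 0.

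Of 48 measured signalling genes that the study discusses for AP-2γ, 3 were higher (6.25%) and 7 lower (14.6%) in 3 of 3 lines, near the 4.38% and 17.9% of all genes. The study chose these genes on the same libraries, so they are no independent evidence of a direction. PCNA, the sliding clamp of DNA replication, was lower in 3 of 3 lines, with 18.45 CPM in WC and 44 CPM in WK of RT-112, 38.46 and 52.93 CPM in HT-1376, and 84.68 and 125.25 CPM in CAL-29. CALML3, a calmodulin-like protein of epithelia, measured 590.97 and 193.76 CPM in CAL-29, 31.17 and 34.41 CPM in HT-1376, and 1.09 and 7.57 CPM in RT-112. THBS1, an adhesive matrix glycoprotein, measured 164.86 and 30.77 CPM in CAL-29 but 38.04 and 63.06 CPM in RT-112 and 8.82 and 13.88 CPM in HT-1376. WNT11 measured 39.18 and 97.80 CPM in RT-112, while HT-1376 stood at 4.60 and 0.23 CPM. The phospholipase PLCE1 was higher in RT-112 (5.12 against 2.07 CPM) and lower in CAL-29 (3.32 against 16.69 CPM). SERINC5, a membrane protein that restricts retroviruses, was lower in CAL-29 (18.22 against 71.05 CPM) and differed less in RT-112 (24.23 against 20.75 CPM) and in HT-1376 (8.66 against 10.38 CPM).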

How the data were processed

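CAGE-seq was performed by the authors on total RNA. Reads of 75 nt were mapped to hg38 with BWA and then HISAT2 2.0.5, tags were clustered and filtered for reproducibility, and CPM per gene and library were deposited with 2 decimals. The annotation and the total behind the CPM are not given in the sources used here. Genes were joined to GENCODE 44 by Ensembl identifier (16553 of 16575). Reads were recovered from the deposited CPM: 99.97% to 99.99% of the values in each library were multiples of 1 read (tolerance 0.0051 CPM), against 18.8% to 20.7% with a wrong total. The totals came to 16588346 to 18363871 reads, and depth covers counting error only.

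The filter asked for 5 CPM in 1 of the 6 libraries. limma 3.58.1 (R 4.3.3) was run on log2(CPM + 0.5) with the cell line as a block, a variance trend and two-sided p-values adjusted by Benjamini-Hochberg. The study used limma-voom and states no block. Pairs come from the labels, each being 1 cell line, so p-values measure the spread between lines, with no replicate within a line. Chi-square between libraries was at least 45.9 per degree of freedom, so no library was a duplicate.

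Genes were named by a rule: the AP-2 family, WWOX and cofactors; genes called; the 15 higher and 15 lower in 3 of 3 lines with the largest smallest difference and 5 CPM on the higher side; up to 4 members of a list in each direction with the same sign in 3 of 3 lines; the 5 highest and 5 lowest of each line at 20 CPM; 8 genes of opposite direction; and genes that the study discusses. Other list members (such as GATA3, FOXA1, SQLE, INSIG1, IFITM1, S100A8 and ERBB2) are examples picked after their values were seen. Some genes, 1 of those called by DESeq2 among them, are not reported here. The members and lists were chosen with earlier results of these data known.

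Alternatives were other pseudocounts (0.05 and 2 CPM), filters (none, or 5 CPM in 3 libraries), TMM, quantile normalization, each line left out, no block, fits over 18 and 17 libraries, voom, edgeR 4.0.16 and DESeq2 1.42.0 on recovered reads. Counts of genes higher or lower in 3 of 3 lines, and edgeR for the difference with KC and KK, were added after seeing the data. On simulated data of 11597 genes for WC against WK, limma with the block recovered 78 of 100 genes changed 2-fold and 100 of 100 changed 4-fold. It called 6 unchanged genes, and without the block it recovered 0 at either size. Each changed gene was given the same fold in all 3 lines, with no spread of the response between lines. The real lines shared little of their response, so these counts do not tell how many real changes of that size limma would find. Promoters came from RefSeq. Python 3.11.15, pandas 2.3.3, SciPy 1.17.1 and matplotlib 3.10.9 were also used.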

Additional observations from a re-analysis of the deposited data

Results flagged for a closer look

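There were 8 genes that were more than 2-fold higher in WC in 1 line and more than 2-fold lower in another, with at least 20 CPM on the higher side of both and the largest gaps between lines. With 1 library per line and variant, the difference between lines was not tested. UBD, a ubiquitin-like protein induced by inflammatory cytokines, measured 228.39 CPM in WC and 40.95 CPM in WK of HT-1376 and 9.73 and 214.47 CPM in CAL-29, a gap of 6.86 on the log2 scale. PSCA had a gap of 6.22 between the same lines, and RNASE1, a secreted ribonuclease, one of 5.19 (29.47 and 4.30 CPM in HT-1376, 4.27 and 27.40 CPM in CAL-29). HPGD, which degrades prostaglandins, had a gap of 4.88, with 24.65 and 8.09 CPM in HT-1376 and 10.46 and 110.06 CPM in CAL-29. UBD, PSCA, RNASE1 and HPGD were thus higher in HT-1376 and lower in CAL-29.

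The other genes were higher in WC of CAL-29 and lower in WC of RT-112. FABP4 had a gap of 5.65, with 39.42 and 1.71 CPM in CAL-29 and 470.03 and 1305.88 CPM in RT-112. GJB2, which encodes connexin 26, had a gap of 4.72 (137.03 and 12.87 CPM against 41.17 and 106.62 CPM). PTHLH, the parathyroid hormone-related protein, had a gap of 4.42 (281.99 and 36.85 CPM against 10.49 and 30.60 CPM), and it was lower in HT-1376 too (6.41 and 16.23 CPM). PPP1R14C, an inhibitor of protein phosphatase 1, had a gap of 4.21 (137.82 and 15.58 CPM against 25.14 and 54.51 CPM). WWOX was 2.48-fold lower in WC of CAL-29, and its part in these gaps cannot be told apart from that of AP-2γ.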

How the results depend on the processing

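The 0 calls of limma held under both pseudocounts, both filters, both scalings, the fits without the block and over more libraries, voom and edgeR, while DESeq2 with the block called 11 genes, and leaving out a cell line gave 0 to 10 calls (10 without HT-1376). The 8 genes past 2-fold in 3 of 3 lines became 25 with a pseudocount of 0.05 CPM and 4 with 2 CPM, and 31 to 72 with the threshold asked of 2 lines only. The 526 genes higher in 3 of 3 lines became 1065 with TMM and 1191 with quantile normalization, and 1133 to 2376 with 1 line left out. The 2153 lower genes became 1212, 1238 and 3097 to 4187. The counts without a line are larger by construction. The limma median over all genes was -0.15 as deposited and -0.02 with TMM, so the excess of lower genes is tied to the scaling. The block of cell lines changed no call in limma, and without the replicate block 0 genes were called, with 4 higher and 2 lower at an unadjusted p under 0.05 in place of 87 and 159.

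TFAP2C had a log2 difference of 1.48 and lay past the threshold only in DESeq2 (1.64, adjusted p 0.000671), and leaving out a line gave 1.28 to 1.60. WWOX was lower on average, and leaving out a line gave -0.79 to 0.018, the direction reversing without CAL-29. Of 465 values of 31 named genes under alternatives, 458 kept their direction and side of the threshold and 6 passed it. Having 3 pairs and 1 library per line and variant limits the precision, and a CAL-29 value rests on 1 pair. The difference between WC against WK and KC against KK was not run with a line left out.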
